A study of Rattus norvegicus with 8 samples.

Results

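The BCL2 family is the set of proteins that decides whether the outer mitochondrial membrane is opened during apoptosis. Its genes were looked up by symbol in the RNA-seq counts of rat peritoneal macrophages. The 10 genes looked for were Bcl2, Bcl2l1, Bcl2a1, Mcl1, Bax, Bak1, Bcl2l11, Bid, Bbc3 and Pmaip1. Of these, 8 matched 1 row each of a table of 23487 genes, and all 8 had enough counts to be tested. Mcl1 and Bbc3 were not analysed here. The macrophages came from female Wistar rats, given as 8 weeks old at purchase. The macrophages were sorted by flow cytometry as CD11b/c-high, His48-dim cells 15 days after particle injection into the peritoneum. One group (4 rats, numbered 3, 5, 10 and 11 in the labels) received MWCNT-XNRI-7 (CNT-7), needle-like multi-walled carbon nanotubes that induce mesothelioma. The other group (4 rats, numbered 1, 2, 12 and 13) received the same mass of tangled nanotubes (CNT-T) that do not. Both groups carry a particle, and untreated rats were not analysed here, so that each difference is one between the 2 particles.

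The family has 3 arms. Among the genes tested, the guardians are BCL2, BCL-XL (encoded by Bcl2l1) and A1 (encoded by Bcl2a1), which bind and restrain the others. MCL1 is also a guardian, but its gene was not analysed here. The effectors BAX and BAK (encoded by Bak1) form the pores through which cytochrome c leaves the mitochondrion. The BH3-only proteins BIM (encoded by Bcl2l11), BID and NOXA (encoded by Pmaip1) sense stress and either occupy the guardians or activate the effectors. In myeloid cells, survival is known to depend on growth factor signals that keep BIM low and guardians high. Values per gene do not separate isoforms, such as the long and short proteins made from Bcl2l1 or the several forms of BIM. They also describe transcripts and not the proteins, many of which are regulated after translation.

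Of the 8 genes, 3 were higher with CNT-7 (Bcl2l11, Bcl2a1 and Bax) and 3 were lower (Bcl2, Bcl2l1 and Bid), whereas Bak1 and Pmaip1 did not pass the test. The test was edgeR's quasi-likelihood test on all 12124 genes with enough counts, and a gene was called at a Benjamini-Hochberg adjusted p under 0.10. Of all genes tested, 27.9% were called, 13.9% as higher and 14% as lower with CNT-7. The largest change was that of Bcl2l11, which was 2.06-fold higher with CNT-7, and the other called members changed by less than 1.5-fold. Across the 8 genes the median log2 fold change (CNT-7 relative to CNT-T) was 0.18 with a range from -0.50 to 1.04, beside a median of 0.0083 over all genes tested. The groups did not overlap in 5 of the 8 genes, beside 24.9% of all genes tested. With so few genes, these shares are a description of the family and not a test of it.

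**Figure D1:**
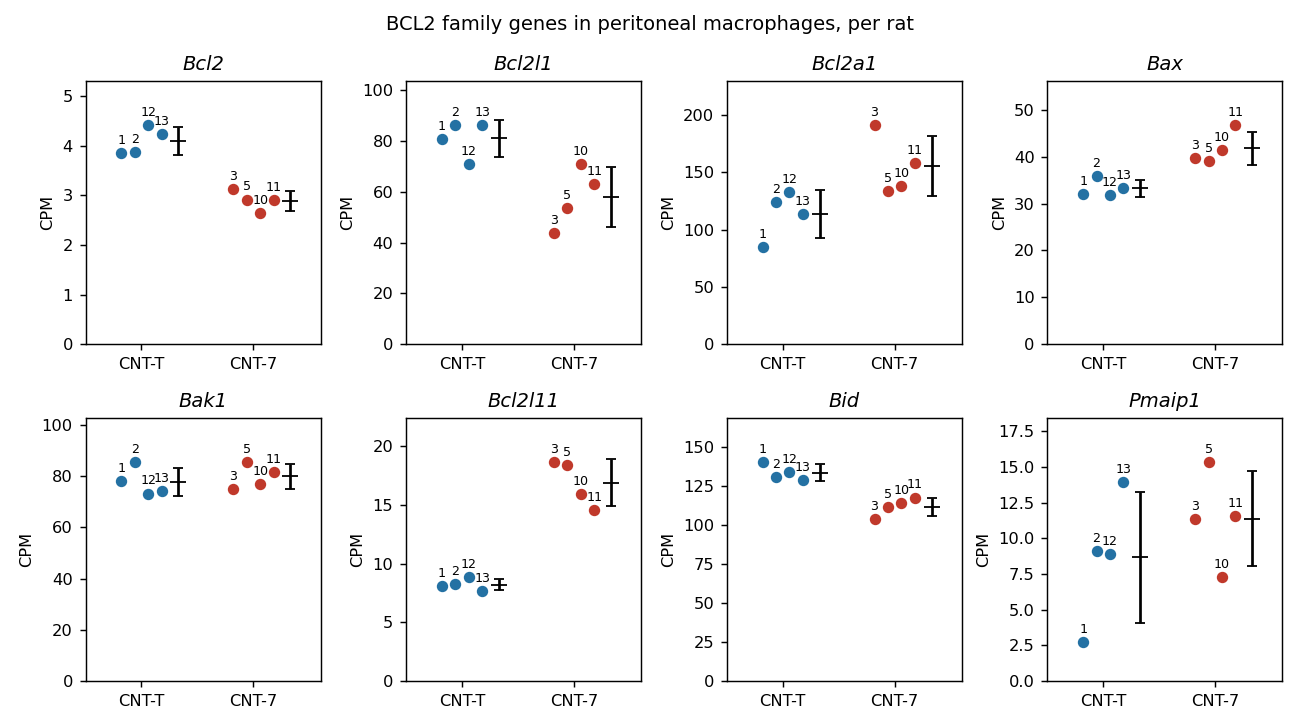
Level of the 8 BCL2 family genes in each rat, in CPM on axes that start at 0. Points are single rats with their number, and bars give the mean and SD of 4 rats. Bcl2l11 lay between 14.6 and 18.7 CPM with CNT-7 and between 7.66 and 8.87 CPM with CNT-T, whereas Bak1, Pmaip1 and, narrowly, Bcl2l1 overlapped between the groups.

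The promoters of 2 members are shown here, since they belong to the gene with the largest rise (Bcl2l11) and to Bcl2, whose fall was practically the same as that of Bcl2l1 (log2 fold changes of -0.50 and -0.49). Each is the 250 bases before the start of the gene in RefSeq (build GRCr8), read 5′ to 3′ along the gene, and this build is not the one used for the counts. Capitals mark matches on either strand to 2 sequences, GTAAACA, which FOXO factors bind, and TGACGTNA, which CREB and ATF factors bind.
Bcl2l11 (chr3:135819792-135820041, plus strand): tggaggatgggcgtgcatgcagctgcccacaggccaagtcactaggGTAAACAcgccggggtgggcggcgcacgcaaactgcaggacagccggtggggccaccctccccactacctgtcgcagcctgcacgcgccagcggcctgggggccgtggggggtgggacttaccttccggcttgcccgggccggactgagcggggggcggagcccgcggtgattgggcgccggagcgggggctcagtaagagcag
Bcl2 (chr13:23366901-23367150, minus strand): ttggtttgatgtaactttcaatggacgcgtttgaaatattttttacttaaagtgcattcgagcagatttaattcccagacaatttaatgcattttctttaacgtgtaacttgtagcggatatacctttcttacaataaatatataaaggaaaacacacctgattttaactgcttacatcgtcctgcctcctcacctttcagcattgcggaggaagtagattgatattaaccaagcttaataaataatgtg
The Bcl2l11 window held a FOXO match that starts 204 bases before the gene. It was the only one in the 11 windows of the 8 family genes in the promoter set used (with Mcl1, without Bax or Bbc3). Of all 33469 rat promoter windows of this length, 3.21% held such a match. The Pmaip1 window held a CREB/ATF match that starts 57 bases before the gene, and 2.88% of all windows held one. The Bcl2 window held neither of these. The windows were also searched, on both strands, for the GC box GGGCGG (in 30.5% of all windows), the AP-1 sequence TGANTCA (6.34%), the TATA box TATAAA (12.9%) and the binding sequence of NF-kappaB (3.54%). The Bcl2 window held a TATA box 109 bases before the gene, and GC boxes lay in the windows of Bcl2l11 (2 matches), Bid (3 matches), Bak1, Mcl1 and Pmaip1 (1 match each). Bcl2a1 held an AP-1 match 231 bases before the gene, and Pmaip1 and Mcl1 held an NF-kappaB match each. The 2 windows shown differed in base composition, with 72% G and C in Bcl2l11 and 33.6% in Bcl2, beside a median of 51.2% over all windows. A match is a run of letters, and no binding was measured in these rats.

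The depth was similar in all rats, with totals between 27195157 and 33732981 counts. Pearson's r of log2 CPM across genes was between 0.971 and 0.986 for rats of the same group, and no library was a copy of another. The sorted cells carried macrophage transcripts in every rat, with a summed level of Csf1r, Cd68, Adgre1, Mertk, Fcgr1a, Lyz2, Cd14 and Mrc1 between 15248 and 22327 CPM with CNT-7 and between 23730 and 33873 CPM with CNT-T. Lyz2 made up 86.9% of this sum and was itself not called (edgeR adjusted p = 0.1002). Of the 8 genes, 1 was called higher (Cd14) and 4 lower (Csf1r, Cd68, Adgre1 and Fcgr1a), that is, 62.5% beside 27.9% of all genes. The summed markers of other cells were low. T cell markers (8 genes) reached at most 14.7 CPM, B cell markers (7 genes) 14.7 CPM, dendritic cell markers (6 genes) 11.6 CPM, neutrophil markers (10 genes, Mpo at 0 counts) 11.1 CPM, eosinophil markers (6 genes, Epx and Prg3 at 0 counts) 9.76 CPM and mesothelial markers (8 genes, Upk3b, Wt1 and Calb2 at 0 counts) 0.90 CPM. Most of these markers had too few counts to be tested, so they are not known to be unchanged. Tested were 3 T cell, 2 B cell, 3 dendritic cell and 5 neutrophil genes, and 0 eosinophil or mesothelial genes. Of those tested, 33.3%, 0%, 66.7% and 40% were called, in that order, beside 27.9% of all genes. The T cell gene was Cd2 (from 0.194 CPM with CNT-T to 2.22 CPM with CNT-7). The dendritic cell genes were Ccr7 (from 0.102 to 1.5 CPM) and Clec9a (from 0.390 to 1.32 CPM). The neutrophil genes were Fcnb (from 0.114 to 0.954 CPM) and S100a8 (from 6.17 to 2.24 CPM). The mast cell list (8 genes) summed to between 20.1 and 32.7 CPM with CNT-7 and between 55.0 and 79.1 CPM with CNT-T, and 97.9% of it was Mrgprx2. Proliferation markers (9 genes, all called lower, beside 14% of all genes) summed to between 370 and 816 CPM with CNT-7 and between 1287 and 1420 CPM with CNT-T. Bulk RNA cannot tell fewer cells of a kind from less RNA per cell, and the part of these markers in the differences below was not tested.

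Among the guardians, Bcl2 and Bcl2l1 were lower and Bcl2a1 was higher with CNT-7. Bcl2 (ENSRNOG00000002791), the founding member of the family, had 3.12, 2.91, 2.64 and 2.90 CPM (counts scaled to the same library total, after TMM normalization) in CNT-7 rats 3, 5, 10 and 11. It had 3.85, 3.87, 4.42 and 4.22 CPM in CNT-T rats 1, 2, 12 and 13. Every CNT-7 rat was therefore below every CNT-T rat. Bcl2 had few reads in these cells, between 73 and 134 counts per rat. The mean fell from 4.09 ± 0.28 CPM (SD, n = 4) with CNT-T to 2.89 ± 0.20 CPM (SD, n = 4) with CNT-7, a log2 fold change of -0.50 with a standard error of 0.14 (edgeR adjusted p = 0.033). When single rats were left out, the adjusted p stayed between 0.045 and 0.092.

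Bcl2l1 (ENSRNOG00000007946) had 43.7, 53.7, 71.0 and 63.1 CPM in CNT-7 rats 3, 5, 10 and 11. It had 80.8, 86.1, 70.9 and 86.3 CPM in CNT-T rats 1, 2, 12 and 13. The groups touched at one point only, where CNT-7 rat 10 and CNT-T rat 12 had nearly the same level. The CNT-7 rats were more spread than the CNT-T rats, with a mean of 57.9 ± 11.8 CPM (SD, n = 4) against 81.0 ± 7.22 CPM (SD, n = 4). The log2 fold change was -0.49 with a standard error of 0.14 (edgeR adjusted p = 0.036), and it was -0.37 without CNT-7 rat 3 and -0.60 without CNT-7 rat 10, both with an adjusted p under 0.10.

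Bcl2a1 (ENSRNOG00000047606), which encodes a short-lived guardian of haematopoietic cells, moved in the opposite direction. It had 191, 134, 138 and 158 CPM in CNT-7 rats 3, 5, 10 and 11. It had 84.7, 124, 133 and 114 CPM in CNT-T rats 1, 2, 12 and 13. The lowest CNT-7 rat (133.9 CPM) was barely above the highest CNT-T rat (133.2 CPM). The mean was 156 ± 26.2 CPM (SD, n = 4) with CNT-7 and 114 ± 21.1 CPM (SD, n = 4) with CNT-T, a log2 fold change of 0.45 with a standard error of 0.16 (edgeR adjusted p = 0.071). This call was lost without CNT-7 rat 3 (adjusted p = 0.172), CNT-7 rat 11 (adjusted p = 0.110), CNT-T rat 1 (adjusted p = 0.121) or CNT-T rat 13 (adjusted p = 0.126), and it is the least stable of the 6.

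The effector Bax was higher with CNT-7 and Bak1 was not called. Bax (ENSRNOG00000020876) had 39.7, 39.1, 41.5 and 46.8 CPM in CNT-7 rats 3, 5, 10 and 11. It had 32.0, 35.9, 31.8 and 33.3 CPM in CNT-T rats 1, 2, 12 and 13. The groups did not overlap, although the step was small. The mean was 41.8 ± 3.50 CPM (SD, n = 4) with CNT-7 and 33.2 ± 1.90 CPM (SD, n = 4) with CNT-T, a 1.26-fold difference (log2 fold change 0.33 with a standard error of 0.080, edgeR adjusted p = 0.017). Without CNT-7 rat 11, which had the highest level, the log2 fold change was 0.27 with an adjusted p of 0.032.

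Bak1 (ENSRNOG00000000485) had 75.2, 85.7, 77.1 and 81.7 CPM in CNT-7 rats 3, 5, 10 and 11. It had 78.0, 85.6, 73.3 and 74.2 CPM in CNT-T rats 1, 2, 12 and 13. The groups overlapped almost completely, with means of 79.9 ± 4.72 CPM (SD, n = 4) with CNT-7 and 77.8 ± 5.6 CPM (SD, n = 4) with CNT-T. The log2 fold change was 0.040 with a 95% interval from -0.13 to 0.21 (edgeR adjusted p = 0.755), so that a change as large as that of Bcl2l1 or Bcl2a1 lay outside the interval of Bak1.

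**Figure D2:**
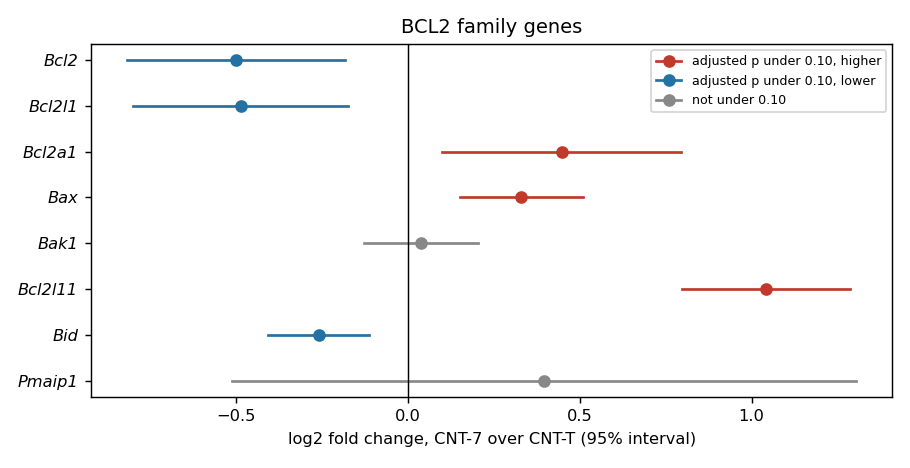
Log2 fold change (CNT-7 relative to CNT-T) for the 8 BCL2 family genes (points) with the 95% interval of the edgeR fit (lines), coloured by the call at an adjusted p under 0.10. Bcl2l11 stands at 1.04, the other 5 called genes lie between -0.50 and 0.45, and the interval of Pmaip1 is the widest.

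Of the BH3-only genes, Bcl2l11 was higher, Bid was lower and Pmaip1 was not called. Bcl2l11 (ENSRNOG00000016551), whose product BIM binds all guardians, had 18.7, 18.4, 16.0 and 14.6 CPM in CNT-7 rats 3, 5, 10 and 11. It had 8.09, 8.22, 8.87 and 7.66 CPM in CNT-T rats 1, 2, 12 and 13. The CNT-T rats were close together, and the lowest CNT-7 rat was well above all of them. The mean was 16.9 ± 1.99 CPM (SD, n = 4) with CNT-7 and 8.21 ± 0.50 CPM (SD, n = 4) with CNT-T. The log2 fold change was 1.04 with a standard error of 0.11 (edgeR adjusted p = 0.00040), higher than in 95.2% of all genes tested. It lay between 0.99 and 1.11 when single rats were left out.

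Bid (ENSRNOG00000012439), which encodes the protein that links death receptors and caspase-8 to the mitochondrion, had 104, 111, 114 and 118 CPM in CNT-7 rats 3, 5, 10 and 11. It had 141, 131, 134 and 129 CPM in CNT-T rats 1, 2, 12 and 13. The groups did not overlap, and both were narrow. The mean was 112 ± 5.91 CPM (SD, n = 4) with CNT-7 and 134 ± 5.18 CPM (SD, n = 4) with CNT-T, a log2 fold change of -0.26 with a standard error of 0.066 (edgeR adjusted p = 0.021). It is the smallest of the 6 called changes.

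Pmaip1 (ENSRNOG00000018770), whose product NOXA binds MCL1 and A1, was the most variable member. It had 11.4, 15.4, 7.26 and 11.5 CPM in CNT-7 rats 3, 5, 10 and 11. It had 2.71, 9.13, 8.90 and 13.9 CPM in CNT-T rats 1, 2, 12 and 13. The rats of both groups were interleaved, and CNT-T rat 1 was the lowest of all with 83 counts. The mean was 11.4 ± 3.32 CPM (SD, n = 4) with CNT-7 and 8.67 ± 4.6 CPM (SD, n = 4) with CNT-T. The log2 fold change was 0.40 with a 95% interval from -0.51 to 1.30 (edgeR adjusted p = 0.546). These data therefore leave room for a rise as large as that of Bcl2l11 and for a fall as large as that of Bcl2. Without CNT-T rat 1 it was 0.098, and without CNT-T rat 13, the highest of its group, it was 0.72 (edgeR adjusted p = 0.835 and 0.273).

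The order of the rats was not the same for all members. CNT-7 rat 3 had the highest Bcl2l11 (18.7 CPM), the highest Bcl2a1 (191 CPM) and the lowest Bcl2l1 (43.7 CPM) and Bid (104 CPM) of its group. It was also the rat with 9.76 CPM of eosinophil markers, against at most 0.74 CPM in any other rat. Without this rat, Bcl2, Bcl2l1, Bcl2l11, Bax and Bid were still called, in the same directions, and Bcl2a1 was not. CNT-T rat 1 had the lowest Bcl2a1 (84.7 CPM) and Pmaip1 (2.71 CPM) and the highest Bid (141 CPM) of its group. The CNT-7 rat with the lowest summed proliferation markers was rat 10 (370 CPM) and that with the highest was rat 11 (816 CPM). In these 2 rats Bcl2l11 was 16.0 and 14.6 CPM and Bcl2l1 was 71.0 and 63.1 CPM, so that rat 11 had the lowest Bcl2l11 of its group and rat 10 the highest Bcl2l1.

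A guardian and its counterpart can also be set against each other within a rat, where library size cancels. Ratios with Mcl1 were planned too, but none could be formed because Mcl1 was not analysed. The ratios below are therefore not the full balance of guardians. Levels of different genes depend on gene length, so each ratio is given on the log2 scale relative to its mean in the CNT-T rats, as a description with no test. The Bcl2 to Bax ratio was -0.64, -0.71, -0.94 and -0.98 in CNT-7 rats 3, 5, 10 and 11, whereas the CNT-T rats lay between -0.19 and 0.17. The means differed by -0.82, that is, the ratio with CNT-7 was 0.567 times that with CNT-T. Bcl2 and Bax were each separated between the groups, in opposite directions. Their ratio therefore had to be separated too, and it adds no evidence of its own. The Bcl2l1 to Bak1 ratio was -0.84, -0.73, -0.18 and -0.43 in the same CNT-7 rats, whereas the CNT-T rats lay between -0.10 and 0.16, a difference in means of -0.54. The Bcl2a1 to Pmaip1 ratio overlapped between the groups, with a difference of -0.10 that changed sign without CNT-7 rat 5 (0.12) or CNT-T rat 1 (0.24).

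Ratios to Bcl2l11 were chosen after its values were seen, and the rise of Bcl2l11 enters each of them. The Bcl2 to Bcl2l11 ratio was -1.56, -1.64, -1.57 and -1.31 in CNT-7 rats 3, 5, 10 and 11, relative to the CNT-T mean, whereas the CNT-T rats lay between -0.079 and 0.14. With CNT-7 it was 0.348 times its value with CNT-T. The Bcl2l1 to Bcl2l11 ratio was lower by a like amount (0.345 times), with more spread between the CNT-7 rats, from -2.07 in rat 3 to -1.14 in rat 10, against -0.30 to 0.19 in CNT-T rats. Even for Bcl2a1, which was itself higher with CNT-7, the ratio to Bcl2l11 was 0.671 times that with CNT-T, although 1 CNT-T rat (rat 1) lay within the range of the CNT-7 rats.

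**Figure D3:**
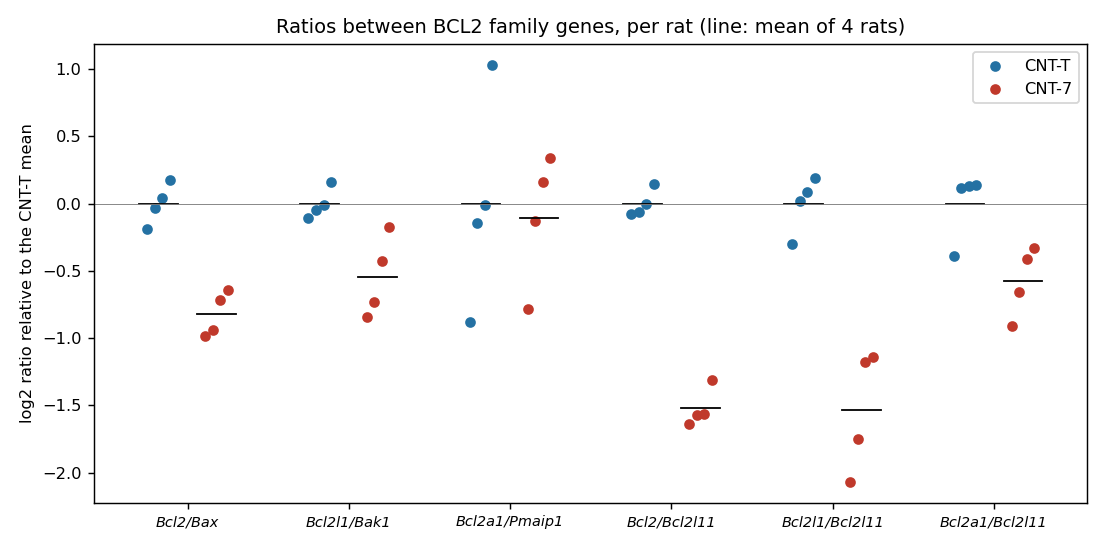
Log2 ratio between pairs of BCL2 family genes in each rat (points), relative to the mean of the CNT-T rats, with the mean of 4 rats as a line. The 4 CNT-7 rats are below the 4 CNT-T rats for Bcl2/Bax (difference -0.82), Bcl2l1/Bak1 (-0.54), Bcl2/Bcl2l11 (-1.52) and Bcl2l1/Bcl2l11 (-1.53), and overlap with them for Bcl2a1/Pmaip1 (-0.10) and Bcl2a1/Bcl2l11 (-0.58).

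The other genes of the pathway were taken as 5 lists, of which 49 genes were tested, 14 were higher and 3 were lower with CNT-7, that is, 34.7% beside 27.9% of all genes. In the 13 further genes of the BCL2 family or of similar proteins, 8 were tested and 2 rose, that is, 25% beside 27.9% of all genes. Bmf, a BH3-only gene like Bcl2l11, rose from 6.09 ± 1.83 CPM (SD, n = 4) with CNT-T to 13.7 ± 3.95 CPM (SD, n = 4) with CNT-7 (log2 fold change 1.16 with a standard error of 0.25, edgeR adjusted p = 0.0093). Bnip3, which encodes a mitochondrial protein with a BH3-like stretch that also acts in mitophagy, rose from 11.9 ± 3.44 to 27.99 ± 12.7 CPM, each a mean ± SD of 4 rats as in all pairs below (log2 fold change 1.23 with a standard error of 0.30, edgeR adjusted p = 0.016). With single rats left out, the log2 fold change lay between 0.95 and 1.38 for Bmf and between 0.87 and 1.43 for Bnip3. Both were lowest without CNT-7 rat 10, and both calls were kept throughout. The guardian Bcl2l2 and the BH3-only genes Bad and Bik were not called, with log2 fold changes of 0.016, 0.037 and 0.13. Bcl2l12 was not called either (-0.42), and the remaining Bcl2l13 and Bnip3l were at 0.033 and 0.15.

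In the list of the apoptosome and the caspases, 13 genes were tested, and 3 rose and 2 fell with CNT-7. These are 38.5% of the list beside 27.9% of all genes, and the calls of Fadd, Dffa and Parp1 among them depended on single rats. Cycs, Apaf1 and Casp9 are at the core of the route downstream of the mitochondrion and encode cytochrome c, its adaptor and the initiator caspase. These genes were not called, with log2 fold changes of 0.12, -0.12 and 0.18. Casp6, an executioner, rose from 3.61 ± 0.39 to 7.39 ± 2.13 CPM (log2 fold change 1.04 with a standard error of 0.20, edgeR adjusted p = 0.0068). Casp2 fell from 77.4 ± 4.17 to 51.7 ± 6.28 CPM (log2 fold change -0.58 with a standard error of 0.094, edgeR adjusted p = 0.0028). Fadd, the adaptor of death receptors, was called higher (log2 fold change 0.21, adjusted p = 0.062), but its adjusted p was between 0.103 and 0.172 without CNT-7 rat 3, 5 or 10 or CNT-T rat 1, 12 or 13. The call of Dffa (log2 fold change 0.18) was lost whichever rat was left out (adjusted p between 0.110 and 0.218). That of Parp1 (-0.41) was lost without any rat other than CNT-7 rat 11 (between 0.128 and 0.208).

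Of the 7 inhibitor of apoptosis (IAP) genes and their antagonists, 1 rose and 1 fell, that is, 28.6% beside 27.9% of all genes. Birc3, which encodes cIAP2, rose from 6.45 ± 1.44 to 12.1 ± 1.33 CPM (log2 fold change 0.91 with a standard error of 0.16, edgeR adjusted p = 0.0044). Birc5, which encodes survivin, a protein that also serves chromosome segregation in mitosis, fell from 33.02 ± 1.28 to 15.04 ± 4.18 CPM (log2 fold change -1.13 with a standard error of 0.17, edgeR adjusted p = 0.0021). Mki67, the marker of cycling cells, fell beside it from 383 ± 15.8 to 123 ± 49.8 CPM (edgeR adjusted p = 0.0018). Xiap, Birc2, Birc6, Diablo and Htra2 were not called, with log2 fold changes between -0.14 and 0.10. The 8 genes of proteins that hold or degrade members of the family (Huwe1, Fbxw7, Usp9x, Vdac1, Vdac2, Vdac3, Mtch2 and Tmbim6) were all tested. Of these, 0 were called by edgeR or DESeq2 and 0 had an unadjusted p under 0.05 in edgeR, beside 27.9% of all genes called, with log2 fold changes between -0.11 and 0.17.

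Genes of growth arrest and of the response to DNA damage, some of which act on apoptosis as well, were taken as a list of 18 genes, of which 13 were tested. With CNT-7, 8 rose and 0 fell (also 0 with DESeq2 or at an unadjusted p under 0.05), beside 13.9% and 14% of all genes, and the median log2 fold change was 0.53. The highest rises were those of Phlda3, an inhibitor of AKT at the membrane, from 2.00 ± 0.69 to 7.94 ± 2.46 CPM (log2 fold change 1.98 with a standard error of 0.29, edgeR adjusted p = 0.0019), and of Tp53inp1, from 2.03 ± 0.38 to 7.97 ± 1.44 CPM (log2 fold change 1.98 with a standard error of 0.20, edgeR adjusted p = 0.00033). Cdkn1a, which encodes the cell cycle inhibitor p21, was at 95.04 ± 28.8 against 24.5 ± 5.25 CPM (log2 fold change 1.95, edgeR adjusted p = 0.00063). Aen, Btg2, Zmat3, Mdm2 and Ccng1 rose by log2 fold changes between 0.45 and 0.78, and Zmat3 had an adjusted p between 0.105 and 0.119 without CNT-7 rat 3 or 5 or CNT-T rat 2 or 12. The groups did not overlap in 8 of the 13 genes tested, the same 8 that were called, beside 24.9% of all genes. Gadd45a, Fas, Mdm4, Sesn1 and Sesn2 were not called, with log2 fold changes between -0.090 and 0.53. DNA damage was not measured in these cells.

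**Figure D4:**
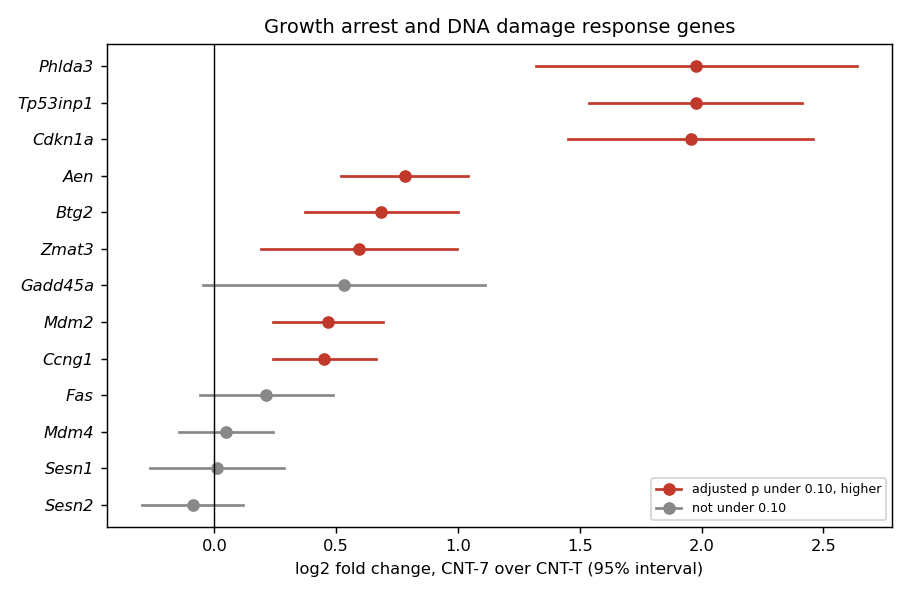
Log2 fold change (CNT-7 relative to CNT-T) for the 13 tested genes of the growth arrest and DNA damage response list (points) with the 95% interval of the edgeR fit (lines), coloured by the call at an adjusted p under 0.10. The 8 called genes lie between 0.45 and 1.98, and the other 5 between -0.090 and 0.53.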

How the data were processed

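The data are RNA-seq counts of sorted macrophages, 4 rats per particle, with the particle and the rat number taken from the sample titles. The authors ran FastQC on the reads, then Salmon with the Ensembl rat cDNA (Rnor_6.0), and summed transcripts to genes with tximeta. They deposited estimated counts, already whole numbers and not normalized, for 23487 genes. Which version of Salmon was used is not given in the sources used here. Salmon shares out reads that fit several transcripts, so counts of similar genes carry its estimate.

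Counts were tested with edgeR 4.0.16 in R 4.3.3 (TMM, filterByExpr at 10 counts and 15 in total, quasi-likelihood fit on all genes, Benjamini-Hochberg adjustment, threshold of 0.10). Standard errors were taken from the log2 fold change and its F statistic, and 95% intervals use the degrees of freedom of the fit. CPM uses TMM-scaled totals, and ratios use log2 CPM with a prior count of 2. Totals lay between 27195157 and 33732981 counts, at which 3 counts are at most 0.109 CPM. This floor covers counting error only. The alternatives were other normalizations, DESeq2 1.42.0, other filters and thresholds, low against high rat numbers as a term and each rat left out. The scripts were tested on simulated data with log2 changes of 1 or 2 in either direction. There edgeR recovered 81.9% of the changes of 1 and 99.0% of those of 2, and 10% of its calls were false. With DESeq2, 19.1% of the calls were false. Smaller changes were not simulated.

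The members and gene lists were chosen with earlier results of these data known. All members are named, and of each other list at most the 2 largest rises and falls with a mean of at least 1 CPM. Cdkn1a and other list genes given with values were named after their values were seen. Some genes of these pathways are not reported here. Promoters came from RefSeq (GRCr8).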

Additional observations from a re-analysis of the deposited data

How the results depend on the processing

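The 8 members' log2 fold changes were recomputed under 14 other settings each, and 108 of the 112 values kept their direction and their side of the threshold. The other 4 were those of Bcl2a1 without single rats (adjusted p between 0.110 and 0.172). With at least a 2-fold change required, 1 member (Bcl2l11), 7 other apoptosis genes and 1006 of all genes were called, against 6, 17 and 3383. With single rats left out, 5 to 6 members, 13 to 16 other apoptosis genes and 2578 to 3515 of all genes were called. With DESeq2, edgeR's RLE and upper-quartile factors, both other filters and low against high rat numbers as a term, the same 6 members were called. An adjusted p under 0.05 left 5 of them, without Bcl2a1. The ratio of Bcl2a1 to Pmaip1 ran from -0.40 to 0.24 when single rats were left out and changed sign without CNT-7 rat 5 (0.12) or CNT-T rat 1 (0.24), and the cause was not tested. No ratio between the other pairs changed direction under another prior count, RLE factors or with a rat left out. Of 238 values of the 17 other genes called, 28 lost their call. No paired analysis was possible because no rat number occurs in both groups. The precision of Bcl2 is limited by its 73 to 134 counts per rat. Labels do not say whether the rats of a group shared a cage or an injection day. The p-values set the difference between the groups against the spread among the rats within each group.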

Other observations

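Some relatives of the BCL2 family were at or near 0 in these macrophages. Bok, whose product is an effector related to BAX and BAK, and the guardian Bcl2l10 had at most 1 count in any rat, Bcl2l15 at most 4 and Bcl2l14 at most 5. Of the growth arrest and DNA damage response list, Pidd1 had 0 counts in all 8 rats, Tp73 at most 1, Eda2r at most 3 and Perp at most 9, and none of these genes was tested.

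In none of the 16 groups of 4 rats (8 members, 2 particles) did 1 rat stand apart by Dixon's ratio. The highest ratio was 0.685, for Bax in CNT-7 rat 11 at 46.8 CPM while the other rats given CNT-7 had 39.1 to 41.5 CPM. Chance alone would put about 0.8 of 16 such groups above the critical value.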
